A study of Mus musculus with 6 samples.

Results

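The Shank and Homer genes were examined in mouse neurons with reduced *Pla2g4e*, the gene of a calcium-dependent N-acyltransferase of the cytosolic phospholipase A2 family. The genes were taken by symbol and comprise *Shank1*, *Shank2*, *Shank3*, *Homer1*, *Homer2* and *Homer3*, 6 of the 55357 genes in the count tables. All 6 passed the filter of at least 6 reads in at least 1 library, as did 21876 genes in all. Shank proteins are large scaffolds deep in the postsynaptic density of excitatory synapses, where they hold the SAPAP proteins bound to PSD-95 above them and the actin cytoskeleton below. Homer proteins form multimers that bind a short proline-rich motif in Shank and in metabotropic glutamate receptors, IP3 receptors and ryanodine receptors, and so tie the scaffold to calcium stores. Loss of SHANK3 in people underlies Phelan-McDermid syndrome, and variants of SHANK2 have been linked to autism.

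The cultures were wild-type primary neurons taken from cortex and hippocampus of C57BL/6N mouse embryos at embryonic day 18. Lentivirus was added at day in vitro 4 and RNA was collected at day in vitro 14. The 3 libraries of the shCtrl group received a virus with a scrambled short hairpin RNA and the 3 of the shPla2g4e group received 1 hairpin against *Pla2g4e*, called sh2, at a dose chosen as the least virus that halved the *Pla2g4e* transcript. A single hairpin was sequenced, so the effect of less *Pla2g4e* and the effect of this hairpin cannot be told apart. The labels do not say whether the replicates were separate cultures, so p-values measure the spread between these libraries, which may be technical. In bulk RNA, fewer cells of a type and less RNA per cell cannot be told apart.

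Libraries held between 17054717 and 23570180 reads assigned to genes. Levels are given as CPM, the reads of a gene scaled to a common library total, after TMM scaling, which adjusts that total for differences in composition between libraries. *Pla2g4e* stood at 38.0, 35.1 and 35.4 CPM in shCtrl replicates 1, 2 and 3 and at 21.8, 14.2 and 18.7 CPM in shPla2g4e replicates 1, 2 and 3, so that 50.5% was left and every library matched its label. Tests were edgeR's quasi-likelihood test across all genes with Benjamini-Hochberg adjustment, and a gene was called at an adjusted p below 0.01. By this rule 1419 of 21876 genes (6.49%) were called, 876 lower (4.0%) and 543 higher (2.48%) in shPla2g4e. Scaling by library size alone turned this split to 609 lower and 796 higher, and the median log2 fold change over every gene tested was then 0.10 in place of 0.03. With the replicate number as a block, 3395 genes (15.5%) were called. The summed level of 10 pan-neuronal markers was 6258 to 6857 CPM in shCtrl and 5811 to 6243 CPM in shPla2g4e, with 2 of the 10 called lower, and 3 lower and 1 higher with the block. The summed level of 10 astrocyte markers was 2913 to 3738 CPM and 1979 to 3172 CPM, with 3 of the 10 called lower, and 7 lower and 1 higher with the replicate block. Of the 8 microglia, 9 oligodendrocyte lineage and 8 mural and endothelial markers none was called by edgeR, limma or DESeq2 (7 had an unadjusted edgeR p below 0.05). With the block 1 microglia and 1 oligodendrocyte lineage marker were called lower and 2 mural and endothelial markers higher, and *Tmem119* and *Cldn5* did not pass the read filter. Microglia markers summed to at most 13.2 CPM in any library, and 1 of 5 proliferation markers was called lower, 2 with the block. The part of these shifts in the results on Shank and Homer genes was not tested.

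The hairpin itself is shown first, because the bases at positions 2 to 8 of a guide strand, its seed, can pair with transcripts other than its target. The target lies in the coding sequence of *Pla2g4e*, in exon 11 of 20 of transcript Pla2g4e-201, at chr2:120182753-120182771 on the minus strand (GRCm38). No other gene of the GENCODE vM21 transcripts held the whole 19-base target. Capitals mark the seed in the guide and its match in the target.
sh2 target: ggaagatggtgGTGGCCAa
sh2 guide: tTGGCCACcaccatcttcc

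The seed match GTGGCCA was then searched in the transcripts of the 6 genes, on the transcript strand only and with overlaps allowed. It stood in a 3′ UTR of *Shank2*, *Shank3* and *Homer2* and in no annotated 3′ UTR of *Shank1*, *Homer1* or *Homer3*. Of 15704 tested genes with an annotated 3′ UTR, 2289 (14.6%) held it in at least 1. The *Shank2* and *Homer2* sites are printed on the transcript strand with the 7 matching bases in capitals, and the coordinates (GRCm38) are those of the capitals.
*Shank2* site 1, chr7:144421205-144421211, plus strand: tgaaatgtgtgGTGGCCAagcagaggctg
*Shank2* site 2, chr7:144421292-144421298, plus strand: tgtcccttggtGTGGCCAaactggggcca
*Shank2* site 3, chr7:144421766-144421772, plus strand: ataattccaggGTGGCCAaaatgaagtca
*Homer2* site, chr7:81607147-81607153, minus strand: gtaacccagctGTGGCCAgcagcgtgggc
At least 1 of the *Shank2* sites was in the 3′ UTR of 4 of its 5 coding transcripts, the *Shank3* site in 2 of 4 and the *Homer2* site in 1 of 4. The base after the match was A at all 3 *Shank2* sites and G at the *Homer2* site. The coding sequence held the match at 2 places in *Shank1*, 4 in *Shank2* and 2 in *Shank3*, and at none in the Homer genes. A match is a description of the letters, and its part in any change was not tested.

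The stretches that encode the Homer-binding motif are shown because they are what joins the members of both families. The motif was searched in each gene's longest translated coding sequence as a pair of prolines, any pair of residues and a phenylalanine. It occurred once in *Shank1*, at residue 1575 of 2167, 2 times in *Shank2*, at residues 1403 and 1469 of 1841, and 2 times in *Shank3*, at residues 908 and 1384 of 1805. No Homer protein held it, and 8.3% of 15800 tested genes did. Capitals mark the 15 bases that encode the motif, which is a match of letters and not a mapped binding site.
*Shank1*, residue 1575: ctgcctCCACCCCTGGAGTTTtccaat
*Shank2*, residue 1403: ttgcctCCCCCCCTGGAATTCgccaat
*Shank2*, residue 1469: ctgccaCCCCCCGAAAGTTTCgatgca
*Shank3*, residue 908: tccgggCCACCCCCCACCTTCtcaccg
*Shank3*, residue 1384: gtgccaCCCCCTGAAGAGTTTgccaat

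Of the 6 genes, *Shank3* and *Shank2* fell in shPla2g4e, and *Shank1* and the 3 Homer genes did not pass the test in either direction. Called lower were thus 2 of 6 genes, beside 4.0% of all genes. No library of one group reached into the range of the other for 2 of 6, beside 30.0% of all genes, so non-overlap alone was about as frequent among these genes as elsewhere. The median log2 fold change was -0.08 over the 6 genes and 0.03 over all genes.

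*Shank3* (ENSMUSG00000022623.18, chr15:89383826-89444464, plus strand, GRCm39, 25 merged exons) encodes the Shank protein with the clearest link to human neurodevelopmental disease. It stood at 294.5, 272.8 and 275.8 CPM in shCtrl replicates 1, 2 and 3 and at 161.0, 132.2 and 178.7 CPM in shPla2g4e replicates 1, 2 and 3. Every shPla2g4e library lay below every shCtrl library, and shPla2g4e replicate 2 was the lowest. The mean went from 281.0 ± 11.8 CPM (SD, n = 3) to 157.3 ± 23.4 CPM (SD, n = 3), and 56.0% was left. The log2 fold change was -0.84 (SE 0.0985, 95% interval -1.05 to -0.63, edgeR adjusted p = 3.95e-05). Between libraries of the same replicate number the log2 ratio was -0.87, -1.04 and -0.63.

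*Shank2* (ENSMUSG00000037541.23, chr7:143555665-143978231, plus strand, GRCm39, 29 merged exons) is expressed from several promoters that give proteins of different length, which gene-level counts merge. It stood at 417.8, 375.3 and 350.1 CPM in the shCtrl libraries and at 263.5, 233.7 and 239.6 CPM in the shPla2g4e libraries. Again no library of one group reached the other. The mean went from 381.1 ± 34.2 CPM (SD, n = 3) to 245.6 ± 15.8 CPM (SD, n = 3), with 64.4% left. The log2 fold change was -0.63 (SE 0.0865, 95% interval -0.82 to -0.45, edgeR adjusted p = 1.54e-04). Same-number ratios were -0.67, -0.68 and -0.55. *Shank2* and *Shank3* were called lower in 16 of 16 settings, those that left out 1 library included, with log2 fold changes of -0.69 to -0.56 and -0.94 to -0.73.

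*Shank1* (ENSMUSG00000038738.16, chr7:43959677-44009996, plus strand, GRCm39, 26 merged exons), the third paralogue and the one with the highest level here, stood at 508.4, 469.7 and 477.7 CPM in shCtrl and at 478.8, 412.6 and 506.5 CPM in shPla2g4e. The groups overlapped, and the shPla2g4e libraries held both the lowest value and 2 values above 2 of the shCtrl libraries. The log2 fold change was -0.06 (SE 0.0872, 95% interval -0.24 to 0.13, edgeR adjusted p = 0.741), and it turned to 0.02 under scaling by library size. The interval leaves room for a fall of up to 0.24 on the log2 scale, which is smaller than the nearest bounds for *Shank2* and *Shank3*.

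**Figure D1:**
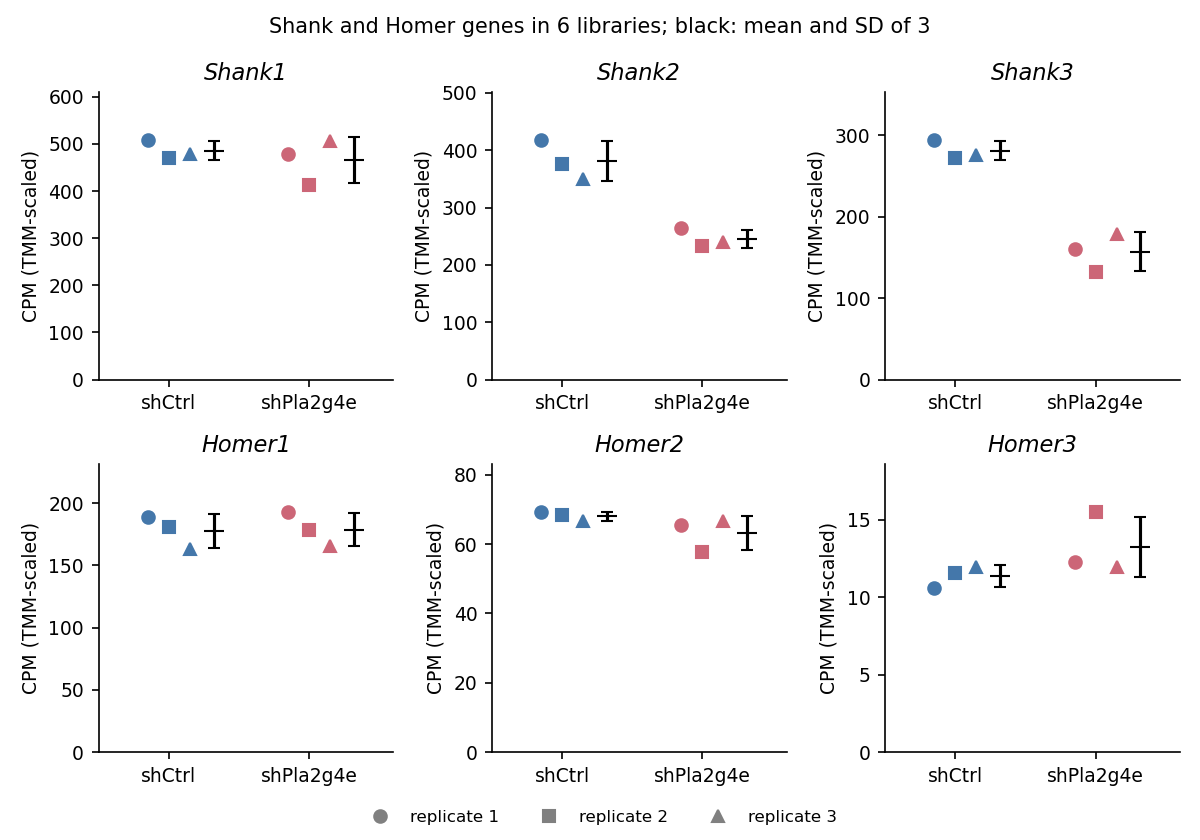
TMM-scaled CPM (y axis, from 0) of each gene in the 3 shCtrl and 3 shPla2g4e libraries (x axis), with 1 symbol shape per replicate number and the mean and SD of 3 libraries in black. The groups are apart for *Shank2* (350.1 to 417.8 against 233.7 to 263.5 CPM) and *Shank3* (272.8 to 294.5 against 132.2 to 178.7 CPM) and overlap for the other 4 genes.

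*Homer1* (ENSMUSG00000007617.19, chr13:93436143-93541637, plus strand, GRCm39, 15 merged exons) gives long, multimerising forms and a short form, Homer1a, that is induced by synaptic activity and competes with the long ones. Gene-level counts add these forms, so a shift between them would not show. The gene stood at 188.9, 180.7 and 162.7 CPM in shCtrl and at 192.5, 178.4 and 165.3 CPM in shPla2g4e. Both groups covered nearly the same range, and replicate 3 was the lowest in each. The log2 fold change was 0.01 (SE 0.0854, 95% interval -0.17 to 0.19, edgeR adjusted p = 0.956). Same-number ratios were 0.03, -0.02 and 0.02.

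*Homer2* (ENSMUSG00000025813.15, chr7:81250229-81357275, minus strand, GRCm39, 12 merged exons) encodes a long-form Homer. It stood at 69.2, 68.4 and 66.6 CPM in shCtrl and at 65.6, 57.7 and 66.7 CPM in shPla2g4e. Only shPla2g4e replicate 2 lay well below the rest. The log2 fold change was -0.10 (SE 0.0831, 95% interval -0.28 to 0.07, edgeR adjusted p = 0.489). The gene holds 1 seed match in a 3′ UTR, as *Shank3* does.

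*Homer3* (ENSMUSG00000003573.16, chr8:70735477-70747011, plus strand, GRCm39, 10 merged exons), the family member best known from cerebellar Purkinje cells, was the lowest of the 6 genes, with 209 to 335 reads per library. It stood at 10.6, 11.6 and 11.9 CPM in shCtrl and at 12.3, 15.5 and 11.9 CPM in shPla2g4e. The highest value came from shPla2g4e replicate 2, the library with the lowest *Shank3* and *Homer2*. The log2 fold change was 0.22 (SE 0.140, 95% interval -0.08 to 0.52, edgeR adjusted p = 0.363). Exons of *Ddx49* on the other strand cover 25.4% of its exon bases, and since counting did not use strand, reads there were not assigned.

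Levels of different genes were compared per kb of merged exon, which assumes that all exons are used. Exon bases shared with a gene on the other strand, where reads were not assigned, stayed in the length. They made up 25.4% for *Homer3* and 4.16% for *Homer2*. The level of *Homer3* is thus understated, and its rank below *Homer2* was not tested without these bases. In shCtrl the order was *Shank1* at 46.2 ± 1.94, *Shank2* at 34.2 ± 3.07, *Shank3* at 30.4 ± 1.28, *Homer1* at 14.8 ± 1.12, *Homer2* at 5.39 ± 0.105 and *Homer3* at 3.31 ± 0.198 CPM per kb (SD, n = 3). Neighbours in this order did not overlap, except *Shank2* and *Shank3*. In shPla2g4e the order of the 6 means was the same, at 44.3 ± 4.59, 22.1 ± 1.42, 17.0 ± 2.54, 14.9 ± 1.14, 5.02 ± 0.390 and 3.85 ± 0.568 CPM per kb (SD, n = 3). There *Shank3* overlapped *Homer1*: its replicates stood at 17.4, 14.3 and 19.3 CPM per kb, and those of *Homer1* at 16.1, 14.9 and 13.8 CPM per kb.

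**Figure D2:**
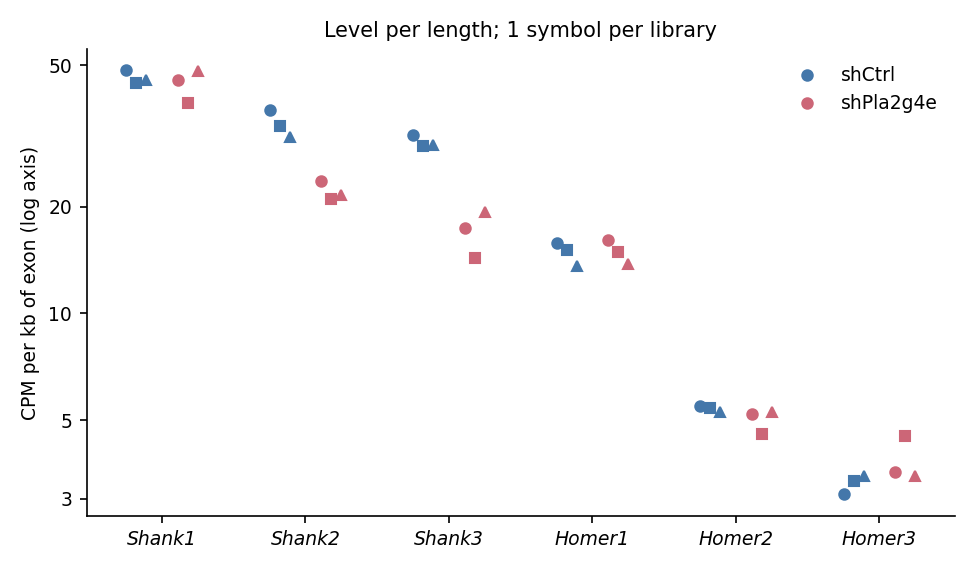
TMM-scaled CPM per kb of merged exon (log axis) for each gene, with 1 symbol per library and shCtrl beside shPla2g4e. In shCtrl all *Shank3* libraries (29.5 to 31.9) lie above all *Homer1* libraries (13.6 to 15.8), and in shPla2g4e these genes overlap.

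Ratios of paralogues within a library do not depend on how libraries are scaled. The log2 ratio of *Shank3* to *Shank1* was -0.79, -0.78 and -0.79 in shCtrl and -1.57, -1.64 and -1.50 in shPla2g4e, a difference of -0.78. The 3 control libraries differed by an SD of only 0.00434, and every shPla2g4e library lay below them. The log2 ratio of *Shank1* to *Shank2* was 0.28, 0.32 and 0.45 in shCtrl and 0.86, 0.82 and 1.08 in shPla2g4e, a difference of 0.57 with no overlap. By exact two-sided permutation over 20 assignments both differences gave p = 0.1, the smallest that 3 against 3 libraries allow, and p = 0.3 after adjustment over 6 ratios. This exact test therefore cannot pass the usual threshold with 3 libraries a group.

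The ratio of *Shank3* to *Shank2* overlapped between groups, at -0.50, -0.46 and -0.34 in shCtrl and -0.71, -0.82 and -0.42 in shPla2g4e (difference -0.22, exact permutation p = 0.3, adjusted p = 0.36). The difference ran from -0.33 without shPla2g4e replicate 3 to -0.13 without shPla2g4e replicate 2 when 1 library was left out. Between same-numbered libraries the ratio of *Shank3* to *Shank2* differed by -0.21, -0.36 and -0.08, below 0 in all 3 pairs. The exact paired p was 0.25, the smallest that 3 pairs allow. Among the Homer genes the differences in log2 ratio were 0.12 for *Homer1* to *Homer2*, -0.20 for *Homer1* to *Homer3* and -0.32 for *Homer2* to *Homer3*, with exact permutation p = 0.3, 0.5 and 0.2, and each overlapped. Leaving out 1 library gave 0.05 to 0.21, -0.30 to -0.08 and -0.43 to -0.13 for these differences, in the same order. Within pairs the ratio of *Homer1* to *Homer2* was higher in shPla2g4e in 3 of 3, by 0.10, 0.23 and 0.02 (exact paired p = 0.25).

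**Figure D3:**
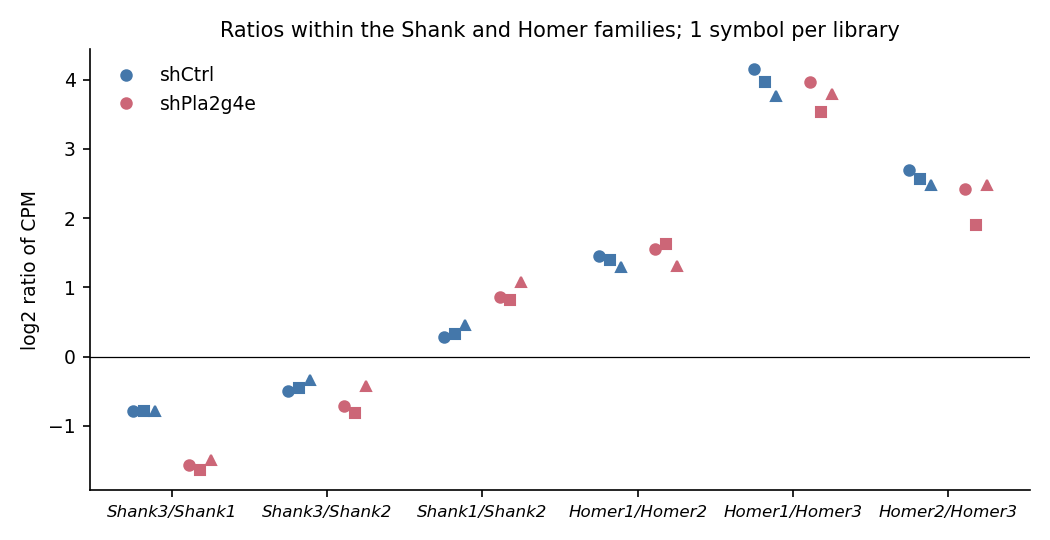
Log2 ratio of CPM for each pair of paralogues (x axis) in every library, with shCtrl beside shPla2g4e. *Shank3*/*Shank1* and *Shank1*/*Shank2* are apart between groups (differences -0.78 and 0.57), and the other 4 ratios overlap.

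The genes of 36 known partners were grouped as 15 Homer ligands, 8 SAPAPs and MAGUKs, which stand between Shank and glutamate receptors, and 13 other Shank ligands. All 36 were tested, and 8 were called lower and 3 higher, beside 4.0% and 2.48% of all genes. Their median log2 fold change was -0.07, beside 0.03 over all genes. Fewer were called when 1 library was left out: lower calls numbered 3 without shCtrl replicate 1, 2 without shCtrl replicate 2 and 3 without shPla2g4e replicate 2, where lower calls over all genes went from 876 to 543, 449 and 570, and higher calls numbered 1 without shCtrl replicate 2 and 1 without shPla2g4e replicate 1, 2 or 3, where higher calls over all genes went from 543 to 246, 306, 361 and 681. *Ryr1*, *Frmpd4* and *Arhgap44* were the 3 of the 11 called genes that stayed past the threshold in every setting.

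Among the Homer ligands 2 genes rose, 2 fell and 11 did not pass the test, with a median log2 fold change of 0.06. *Grm5* encodes a metabotropic glutamate receptor that Homer anchors. *Grm5* stood at 230.3, 216.6 and 217.1 CPM in shCtrl and 204.2, 188.3 and 185.0 CPM in shPla2g4e, apart between groups, with a log2 fold change of -0.20 (edgeR adjusted p = 0.106).

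Of the genes of calcium-store channels listed as Homer ligands, *Itpr1* and *Ryr1* rose, *Ryr2* fell, and *Itpr2*, *Itpr3* and *Ryr3* did not pass the test. *Itpr1*, the main neuronal IP3 receptor, rose from 120.0, 100.6 and 102.4 CPM to 140.3, 140.2 and 141.8 CPM (log2 fold change 0.39, edgeR adjusted p = 0.00586), a call kept in 1 of 6 fits that left out a library. *Ryr1*, the ryanodine receptor of skeletal muscle that neurons also express, rose from 22.0, 21.5 and 19.5 CPM to 40.5, 39.2 and 35.2 CPM (log2 fold change 0.87, edgeR adjusted p = 3.24e-05). *Ryr2*, its cardiac and main brain paralogue, fell from 170.5, 170.4 and 155.5 CPM to 135.6, 120.1 and 124.8 CPM (log2 fold change -0.38, edgeR adjusted p = 0.00478), a call kept in 2 of 6 such fits and lost under scaling by library size (edgeR adjusted p = 0.0103). In the motif search *Itpr1* and *Ryr1* held the Homer-binding motif once each, and *Ryr2* and *Ryr3* held no match to it. *Ryr3*, named after its values were seen, had a log2 fold change of 0.32 (edgeR adjusted p = 0.0164) and passed the threshold in 6 of the 9 other settings with all libraries, the replicate block among them (edgeR adjusted p = 4.79e-04), and in 1 of 6 fits without a library.

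*Frmpd4* encodes Preso, a spine protein that binds Homer and PSD-95. It fell from 101.7, 90.5 and 75.8 CPM to 57.0, 48.1 and 52.1 CPM (log2 fold change -0.77, edgeR adjusted p = 1.53e-04). All 3 shPla2g4e libraries lay below the lowest shCtrl library.

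Of the SAPAPs and MAGUKs, *Dlgap1* and *Dlgap2* fell and the other 6 did not pass the test, with a median log2 fold change of -0.10. SAPAPs, encoded by the Dlgap genes, bind the PDZ domain of Shank. *Dlgap1* stood at 323.9, 282.1 and 284.6 CPM in shCtrl and at 231.9, 191.7 and 229.3 CPM in shPla2g4e (log2 fold change -0.45, edgeR adjusted p = 0.00384), and its call was kept in 3 of 6 fits without a library. *Dlgap2* stood at 74.7, 74.8 and 75.9 CPM and at 59.4, 46.5 and 57.8 CPM (log2 fold change -0.46, edgeR adjusted p = 0.00384), kept in 2 of 6 and lost under scaling by library size (edgeR adjusted p = 0.0108). Both genes were apart between the groups.

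*Dlgap3* had a log2 fold change of -0.13 (edgeR adjusted p = 0.445), and *Dlgap4* one of -0.07 (edgeR adjusted p = 0.622) that was 0.00 under scaling by library size. *Dlg4*, the gene of PSD-95, stood at 932.0, 852.0 and 810.2 CPM in shCtrl and at 797.0, 673.0 and 788.9 CPM in shPla2g4e. These groups were apart by a narrow margin, with a log2 fold change of -0.20 (edgeR adjusted p = 0.167). With the replicate number as a block the edgeR adjusted p of *Dlg4* was 0.00928, which passed the threshold.

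Of the 13 other Shank ligands 4 fell, 1 rose and 8 did not pass the test, with a median log2 fold change of -0.14. *Arhgap44*, a GTPase-activating protein of spines also called RICH2, fell from 154.3, 136.8 and 126.6 CPM to 81.1, 69.8 and 73.1 CPM (log2 fold change -0.90, edgeR adjusted p = 1.03e-05). *Lrrc7*, the gene of densin-180, fell from 154.7, 157.7 and 135.7 CPM to 110.3, 103.8 and 109.8 CPM (log2 fold change -0.47, edgeR adjusted p = 0.00119), kept in 5 of 6 fits without a library. All shPla2g4e libraries of both genes lay below all shCtrl libraries.

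*Cttn*, the gene of the actin-binding protein cortactin, fell from 237.4, 229.5 and 221.9 CPM to 180.2, 177.1 and 176.1 CPM (log2 fold change -0.37, edgeR adjusted p = 0.00344). *Sptan1*, the gene of alpha-II spectrin, fell from 1664, 1571 and 1468 CPM to 1240, 1120 and 1233 CPM (log2 fold change -0.39, edgeR adjusted p = 0.00501). Each of these calls was kept in 2 of 6 fits without a library, and that of *Sptan1* was lost with at least 10 reads in every library (edgeR adjusted p = 0.0157). *Lzts3*, the gene of the Shank-binding protein ProSAPiP1, rose from 75.8, 67.1 and 66.0 CPM to 90.2, 85.2 and 91.5 CPM (log2 fold change 0.35, edgeR adjusted p = 0.00958), kept in 1 of 6 and lost with DESeq2 size factors (edgeR adjusted p = 0.0126).

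**Figure D4:**
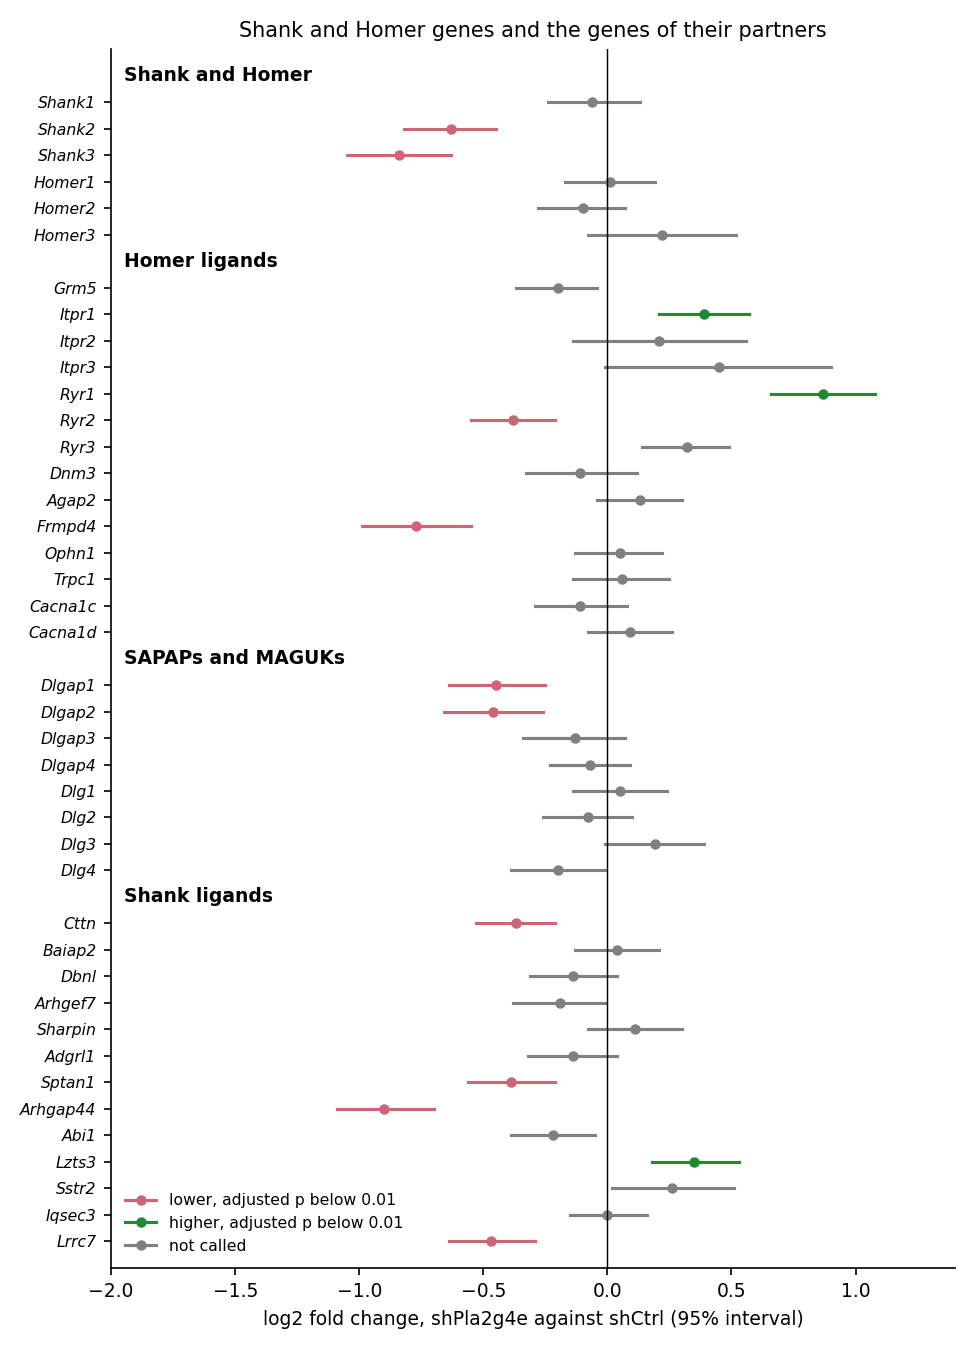
Log2 fold change of shPla2g4e against shCtrl (x axis) with its 95% interval for the 6 Shank and Homer genes and 35 partner genes, red where called lower, green where called higher and grey where not called. *Shank3* (-0.84), *Arhgap44* (-0.90) and *Frmpd4* (-0.77) lie farthest to the left and *Ryr1* (0.87) farthest to the right.

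A 3′ UTR match to the sh2 seed was present in 2 of the 2 Shank and Homer genes called lower and in 1 of the 4 not called. Among the partner genes it was present in 4 of the 8 called lower (*Frmpd4*, *Dlgap2*, *Cttn* and *Arhgap44*), in 0 of the 3 called higher and in 4 of the 25 not called. All these shares stand beside 14.6% of tested genes with an annotated 3′ UTR, whatever their call. The share among all 876 genes called lower is not given, so the comparison is not with like genes. The lists are small and were chosen with results known, no test was made on them, and what the matches contribute was not tested.

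Because Homer1a is induced by activity, 15 genes that respond to neuronal activity were read beside *Homer1*. Of these, 3 rose and 0 fell in edgeR, beside 2.48% and 4.0% of all genes. By limma 3 rose and by DESeq2 5, and 0 fell by either tool. At an unadjusted edgeR p below 0.05, 8 lay higher and 3 lower, and with the replicate block 7 rose and 3 fell, beside 1422 and 1973 of the 21876 genes. *Fos* rose from 68.7, 70.1 and 70.7 CPM to 103.9, 108.8 and 89.2 CPM (log2 fold change 0.53, edgeR adjusted p = 7.11e-04). *Fosb* and *Nr4a1* also rose, with log2 fold changes of 0.88 and 0.47 (edgeR adjusted p = 7.49e-04 and 0.00748), but the call of *Fosb* was lost in the robust fit (edgeR adjusted p = 0.0247) and that of *Nr4a1* was kept in 2 of 6 fits without a library. *Arc*, whose transcript is carried to active dendrites, had a log2 fold change of 0.21 (edgeR adjusted p = 0.138), and *Bdnf*, a neurotrophin gene, one of 0.31 (edgeR adjusted p = 0.0406), which passed the threshold in 3 of the 9 other settings with all libraries, the block among them (edgeR adjusted p = 2.49e-04). *Egr1*, *Egr3* and *Npas4*, activity-induced transcription factor genes named after their values were seen, lay the other way without passing the test, with log2 fold changes of -0.28, -0.42 and -0.41 (edgeR adjusted p = 0.0460, 0.0495 and 0.0578). *Homer1* itself had a log2 fold change of 0.01, as given above.

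The genes whose levels followed *Shank2* and *Shank3* most closely were found by Pearson's r of log2 CPM over 6 libraries among 10958 genes whose log2 CPM averaged 3 or more. For *Shank2* they were *Prmt5*, an arginine methyltransferase gene (r = 0.9994), *Rab6b*, a neuronal Golgi Rab gene (r = 0.9992), and *Rasgrf2*, a Ras exchange factor gene (r = 0.9992). For *Shank3* they were *Git1*, the gene of a synaptic scaffold that binds ARHGEF7 (r = 0.9991), *Mlx* (r = 0.9965) and *Palm* (r = 0.9965). The 6 points fall into the 2 groups, so r mostly reflects the difference between groups, and 1291 genes for *Shank2* and 1115 for *Shank3* reached an r of 0.9.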

How the data were processed

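RNA of 6 samples of primary mouse neurons (3 shCtrl, 3 shPla2g4e) was selected for polyadenylated transcripts and made into libraries with a stranded kit. The deposited values are raw counts of reads per gene, made by the authors with featureCounts 1.6.0 over exons. The file headers give no option for strand, so reads of both strands were counted, and reads overlapping several genes were left out. Coordinates in the files are those of GRCm39, whereas the methods name mm10, and the submitters' processing notes name STAR 2.7.0d and FastQC 0.11.8. Symbols came from GENCODE vM21 by gene ID (52081 of 55357 matched), as did transcripts for seed and motif searches (GRCm38). Coordinates of the 2 builds were not mixed.

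Genes that reached 6 reads in any library were kept, scaled by TMM and tested with edgeR 4.0.16 (quasi-likelihood, group only, R 4.3.3), with Benjamini-Hochberg adjustment over 21876 genes and calls below 0.01. The test was checked on simulated data. Alternatives used limma 3.58.1 after voom, DESeq2 1.42.0, other scalings and filters, a robust fit, a replicate block and leaving out each library. Replicate numbers paired the libraries: deviations from group means correlated at 0.391, 0.188 and 0.460 for libraries of the same number and at -0.391 to 0.105 for others, over 10958 genes. No 2 libraries agreed within counting noise. Total counts of 17054717 to 23570180 limit precision for the least abundant gene, *Homer3*. Members and gene lists were chosen with earlier results of these data known. Named were the 6 genes and *Pla2g4e*, partner genes that were called, a fixed set of partner genes whether called or not (*Grm5*, *Itpr1*, *Dlgap1* to *Dlgap4*, *Dlg4*), activity genes that were called plus *Arc*, *Fos* and *Bdnf*, and for each called member the 3 genes with the highest Pearson r of log2 CPM over the libraries. *Ryr3*, *Egr1*, *Egr3* and *Npas4* were added after their values were seen. Cell type markers were counted and summed only. A partner gene and a seed site are not reported here by name or sequence.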

Additional observations from a re-analysis of the deposited data

How the results depend on the processing

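*Shank2* and *Shank3* stayed called and lower under every alternative run, and *Shank1* and the Homer genes were called under none. Leaving out 1 library gave log2 fold changes of -0.12 to 0.02 for *Shank1*, -0.05 to 0.06 for *Homer1*, -0.14 to -0.04 for *Homer2* and 0.09 to 0.28 for *Homer3*. Scaling by library size changed the sign of near-zero values, to 0.02 for *Shank1* and 0.00 for *Dlgap4*, ended the calls of *Ryr2* (adjusted p = 0.0103) and *Dlgap2* (0.0108), took partner genes called lower from 8 to 6, and made *Ryr3* (0.00530) and *Bdnf* (0.00744) called. Calls were also lost by *Sptan1* with at least 10 reads in every library (0.0157), *Lzts3* with DESeq2 size factors (0.0126) and *Fosb* in the robust fit (0.0247). Partner genes called lower numbered 2 to 7 and those called higher 1 to 3 when 1 library was left out, which leaves fewer samples to test. The replicate block raised calls over all genes from 1419 to 3395, and *Dlg4* (edgeR adjusted p = 0.00928), *Ryr3* and *Bdnf* were newly called. It changed no other call among the Shank and Homer genes, *Pla2g4e* and the partner and activity genes named by rule. Over the whole list of 15 activity genes, the block took calls from 3 to 7 higher and from 0 to 3 lower. With 3 libraries a group, an exact permutation test of a ratio cannot go below p = 0.1. *Homer3*, at 209 to 335 reads, had the widest interval of the 6 genes.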
